A study of Zea mays with 4 samples.

Results

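Partnered ZmbZIP22 peaks are entries of the replicate 1 or replicate 2 peak list whose summit has a summit of the other list close by. Those on chromosome 1 were chosen by 2 values, a chromosome entry of 1 and a distance of at most 500 bp to the nearest summit of the other list. They numbered 554 in replicate 1 and 554 in replicate 2, or 1108 rows in all. Replicate 1 held 1961 peaks over the 10 chromosomes and replicate 2 held 1791, of which 1550 in each were partnered. Chromosome 1 thus carried 35.7% of the partnered rows. Closeness of the summits was used for the choice, so the fact that these peaks occur in both lists is not a finding.

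ZmbZIP22 is a basic leucine zipper (bZIP) transcription factor of the maize kernel. Proteins of this class bind DNA as dimers through a basic region, typically at sequences with an ACGT core, and ZmbZIP22 is known for acting on a gamma-zein gene. Zeins are the storage proteins of the endosperm, the tissue that fills most of the kernel with starch and protein.

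Chromatin of endosperm was immunoprecipitated and sequenced, and the authors called peaks per replicate. The plants were wild-type maize, sampled 15 days after pollination. An antibody made by the submitters against ZmbZIP22 gave 1 library in each of 2 replicates, and nonspecific IgG gave the antibody control of each, for 4 libraries. Whether the 2 replicates are different plants or different pools of kernels is not in the labels, so the spread between them may be technical. No IgG values were analysed here. A peak list holds positions and no read totals, so the depth of the libraries is unknown. Intervals in parentheses are exact 95% (Clopper-Pearson) intervals on shares and cover counting error only. Peaks of 1 library are not replicates of a condition, so differences between groups of peaks are given as descriptions and were not tested. Positions are those of the authors' files. The genome build is not given in the sources used here, so peaks were not placed near genes and no sequence is shown.

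The distances of members reached almost to the limit of the rule, and those of other peaks began far beyond it. The farthest partner summits lay 497 bp, 442 bp and 413 bp apart. The first of these pairs was at 262306204 to 262306702 in replicate 1, with 3.0-fold enrichment there, and its partner had 4.37-fold. The second was at 262532407 to 262532673, where the lists gave 3.47-fold and 6.09-fold. The third lay at 260467113 to 260467368, with values of 4.65-fold and 14.0-fold. Just outside the rule, the nearest replicate 1 peak without a partner was at 39760885 to 39761370, 12637 bp from a replicate 2 summit and 43.999-fold enriched. The nearest such replicate 2 peak was at 157245178 to 157245772, 10186 bp away and 27.8-fold enriched. Peaks without a partner, called lone below, numbered 68 in replicate 1 and 41 in replicate 2 on this chromosome, and their lowest fold enrichment was 25.2 and 25.02.

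The partnered peaks were unevenly placed along the chromosome. Positions are given on the span up to the last listed peak, 301 Mb. The stretch from 80 to 110 Mb held 159 of the 554 pairs, 28.7% (24.97% to 32.7%), on 9.96% of the span. That is 5.30 pairs per Mb. The first 80 Mb held 198 pairs, or 2.48 per Mb. Between 120 and 150 Mb there were 8 pairs, or 0.267 per Mb, and the window from 130 to 140 Mb held 0 in either list. A second concentration from 150 to 180 Mb held 93 pairs, or 3.10 per Mb. Beyond 200 Mb, 49 pairs were spread over 101 Mb, which is 8.84% of the pairs (6.61% to 11.5%) on 33.6% of the span. All of these bounds, those of the stretch included, were set with the positions known, so the densities describe how the peaks lie and give no support to the bounds.

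Lone peaks of the same chromosome were placed differently, but they are entries of another kind. Pileup is the height of the stacked fragments at a summit, in the units in which the authors deposited it. Each was at least 25-fold enriched, and their lowest implied background, computed as (pileup + 1) over fold enrichment, less 1, was 0.868 in both lists, against 2.17 and 1.35 among members. The replicate 1 pileup was a whole number in 68 of 68 lone peaks and in 0 of 554 members, whereas in replicate 2 it was whole in every entry of both kinds. The densities that follow thus set unlike entries side by side. The stretch held 5 of their 109 entries, 4.59% (1.51% to 10.4%), with 4 in replicate 1 and 1 in replicate 2. Beyond 200 Mb lay 48 entries, 44.04% (34.5% to 53.9%). The pair density was 2.48 per Mb in the first 80 Mb and 0.485 per Mb beyond 200 Mb, while lone entries numbered 0.463 and 0.475 per Mb. From 120 to 150 Mb there was 1 lone entry. The position of the centromere and the share of repeats along the chromosome were not used here, so their part in these densities was not tested.

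**Figure D1:**
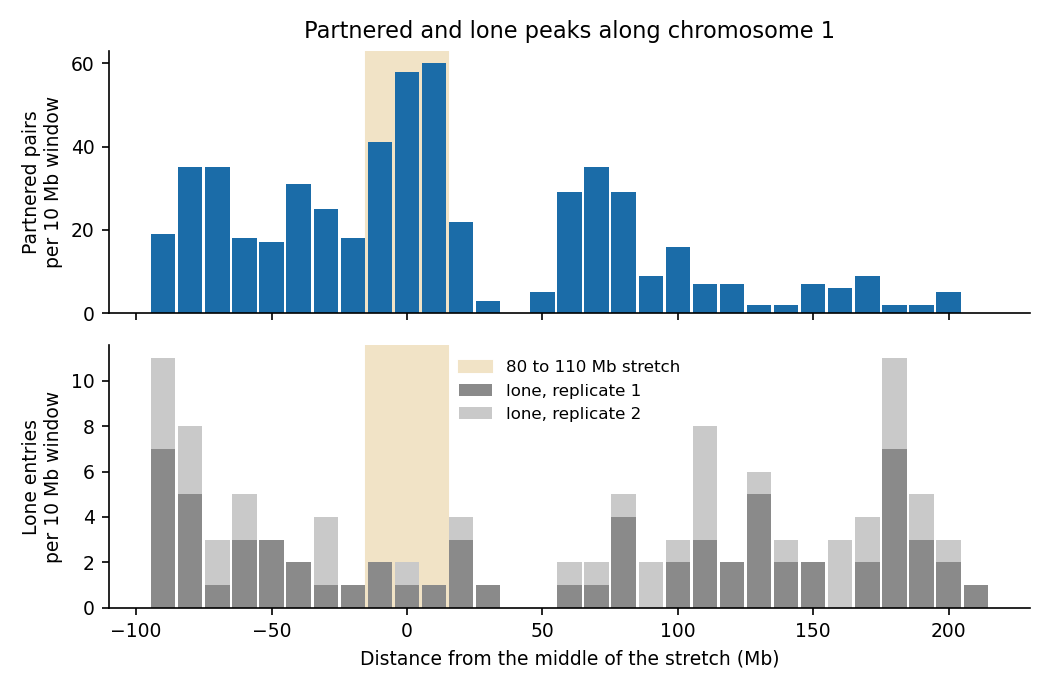
Partnered pairs (upper panel) and lone entries of each list (lower panel, stacked) in windows of 10 Mb along chromosome 1, against the distance of the window from the middle of the 80 to 110 Mb stretch (shaded). The windows of the stretch hold 41, 58 and 60 pairs, and lone entries there number 5 in all.

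Within the stretch the pairs were clumped at the scale of 1 Mb. The 10 Mb windows from 80, 90 and 100 Mb held 41, 58 and 60 pairs, the last being the most of any window. At 1 Mb, 14 of the 37 windows with at least 5 pairs were in the stretch, which is 9.96% of the span. Its bounds were set with the positions known, so this count restates the density. In the stretch 1 window held none, against 127 of 302 over the chromosome. The windows from 80 and 89 Mb held 1 pair each. The fullest window, from 95 to 96 Mb, held 13 pairs, and those from 90, 102 and 107 Mb held 12 each. Every summit counts here, and the fullest window contains the replicate 1 intervals with 3 and with 4 summits, at 95790987 and 95792515. Counted by replicate 1 interval, it would not be the fullest. Outside the stretch the highest count was 9, reached in 2 windows, of which 1 began at 57 Mb.

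Spacing followed the density. In replicate 1, with each interval counted once, the median gap between neighbouring summits was 179.7 kb over the chromosome (quartiles 46.98 and 520.1 kb). It was 83.1 kb inside the stretch (150 gaps) and 245 kb elsewhere on chromosome 1 (387 gaps). In replicate 2 the medians were 72.3 kb (158 gaps) and 237 kb (393 gaps). Partnered peaks of the other chromosomes had median gaps of 518.4 kb in replicate 1 and 469 kb in replicate 2. With every row counted, the replicate 1 medians were 72.5 kb inside the stretch, 237 kb elsewhere and 469 kb on the other chromosomes. The differences between the lists thus came from counting each interval once, and the lists are otherwise alike because partners lie close. The mean gaps on chromosome 1 were larger than the medians, at 555 kb and 541 kb. The widest, 18.7 Mb, ran from the pair at 128440506 to 128440780 to the pair at 147143927 to 147144182. The next, 10.7 Mb, began at 214726112.

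**Figure D2:**
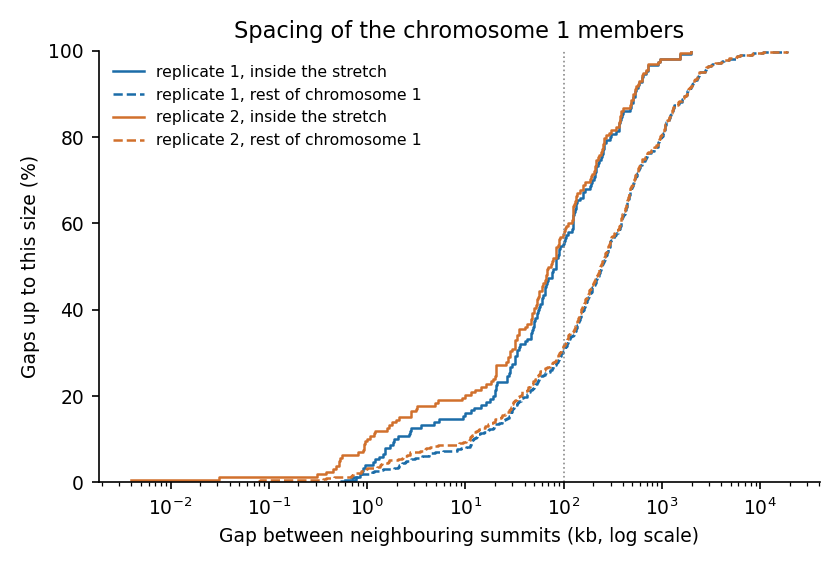
Share of gaps (%) up to a given size, against the gap between neighbouring member summits (kb, log scale), for each list inside the stretch (solid) and elsewhere on chromosome 1 (dashed), each interval once. Gaps of up to 100 kb (dotted line) make up 55.3% and 57.6% of those inside the stretch and 30.5% and 31.6% elsewhere.

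Runs were formed from 3 or more members with gaps of at most 100 kb. In replicate 1 there were 45 runs with 183 of 540 intervals, 33.9% (29.9% to 38.1%), and in replicate 2 there were 49 with 203 of 554, 36.6% (32.6% to 40.8%). Inside the stretch 88 of 151 replicate 1 intervals were in runs, 58.3% (49.98% to 66.2%), against 95 of 389 elsewhere, 24.4% (20.2% to 29.0%). In replicate 2 the shares were 60.4% (52.3% to 68.04%) and 27.1% (22.8% to 31.8%). A denser stretch has more runs by construction, so this restates the density on a finer scale. At the other end, 231 replicate 1 intervals had no other member within 100 kb.

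The longest run in replicate 2 had 10 members within 83.9 kb, from 95710090 to 95794290. Its first member, at 95710090 to 95710574, had a pileup of 53 and 9.16-fold enrichment, and its last, at 95794026 to 95794290, a pileup of 26 and 3.93-fold enrichment. The strongest, at 95790709 to 95791291, reached 26.3-fold with a pileup of 92. In replicate 1 the same 10 summits fell into 5 intervals, with fold enrichments between 3.27 and 5.15. The 10 values of replicate 2 lay between 3.73 and 26.3, so the members of this run were uneven in replicate 2 and level in replicate 1.

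A run of 7 members lay at 107231017 to 107368945. Its first replicate 1 member (107231017 to 107231501) was 11.1-fold enriched there, and its partner 31.2-fold. The last, at 107368669 to 107368945, was 3.56-fold enriched and its partner 8.22-fold. The strongest member by replicate 1 was at 107303766 to 107304146, with 13.6-fold and 20.4-fold. By replicate 2 it was the neighbour at 107306367 to 107306996, with 37.2-fold enrichment and a pileup of 182, whose partner had 7.21-fold and 21.9. The lists thus placed the top of this run at different members, less than 3 kb apart.

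The other run of 7 members, at 56894490 to 57173372, was outside the stretch. Replicate 1 gave 5.45-fold for its first member and 3.90-fold for its last, and replicate 2 gave 8.79-fold and 22.99-fold. Replicate 1 was highest at 56970083 to 56970481 (10.1-fold, partner 17.3-fold), whereas replicate 2 was highest at the last member. In a run of 6 at 91882445 to 92010591, both lists were highest at the same member, 91935362 to 91935757, with 8.35-fold and 23.3-fold enrichment. Its first member had 5.01-fold and 9.42-fold, and its last 6.11-fold and 5.28-fold. In replicate 1 this run shared its size of 6 with runs that began at 102214354, 115123897 and 155409173.

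Very close neighbours were of a different kind in each list. In replicate 1, 25 members lay in 11 intervals that carried more than 1 summit, of which 9 had 2 summits, 1 had 3 and 1 had 4. The 5 shortest replicate 1 gaps, of 245, 251, 268, 270 and 292 bp, were all between summits of 1 interval, those beginning at 47584199, 178859587, 87920064, 162319261 and 153773289. Replicate 2 had no interval with more than 1 summit, and the 25 summits stood opposite 25 separate replicate 2 intervals. The interval with 4 summits, at 95792515 to 95794173, was also the longest replicate 1 member, at 1659 bp. Its replicate 1 fold enrichments were 5.15, 4.68, 3.27 and 4.62, and those opposite were 14.6, 5.84, 15.3 and 3.93. The order of the 4 summits by fold enrichment was not the same in the lists.

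In replicate 2 there were 7 overlaps between neighbouring intervals of the list, and 5 of these stood opposite a single replicate 1 interval. The 5 shortest replicate 2 gaps were 4, 31, 77, 81 and 310 bp, all between such overlapping intervals. At 90207342 to 90207901 a replicate 2 peak had a pileup of 108 and 21.2-fold enrichment, and the overlapping peak at 90207447 to 90207893 had its summit 4 bp away with a pileup of 41 and 12.8-fold. At 162319238 to 162319760 the pileup was 206, and 77 bp away, in the peak at 162319454 to 162319734, it was 23. The gaps of 31 and 81 bp were at 87920218 and 47584198, with pileups of 25 and 19 and of 63 and 27. That of 310 bp was at 95792578, with pileups of 59 and 22. No replicate 1 interval of chromosome 1 overlapped another. How the caller or a later step came to list such entries is not given in the sources used here.

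Fold enrichment, the ratio of the pileup to the local background, was moderate and narrow in replicate 1. Its median was 4.30 (quartiles 3.63 and 5.45, range 1.48 to 59.6). In replicate 2 the median was 7.84 (quartiles 5.59 and 14.6, range 1.98 to 46.2). Replicate 2 was the higher of the partners in 455 pairs and replicate 1 in 99. The lists were not brought to 1 scale by a step known here, so this order is that of the deposited values. The same holds for pileup, which is given for each list and is not to be compared between lists. The −log10 q of the members had a median of 4.6 in replicate 1 (range 1.08 to 279) and 16.1 in replicate 2 (1.38 to 248).

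The stretch differed little from the rest in fold enrichment. In replicate 1 the median was 4.41 inside it (quartiles 3.75 and 5.83) and 4.25 elsewhere on chromosome 1 (3.63 and 5.28). In replicate 2 it was 8.09 (5.53 and 13.7) and 7.78 (5.66 and 14.9). Partnered peaks of the other chromosomes had medians of 3.97 and 7.53. The quartile ranges overlapped in each of these comparisons. Peaks of the stretch were thus more numerous per Mb, with fold enrichments spread over much the same range.

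Replicate 1 members of the stretch were lower in pileup than those elsewhere while their fold enrichment was not. The median pileup was 16.6 inside (quartiles 12.3 and 23.6) and 19.3 elsewhere (13.1 and 37.2). The background implied by pileup and fold enrichment (with a pseudocount of 1) had a median of 2.17 inside and 3.0 elsewhere. Its lowest value, 2.17, was shared to within 0.01 by 233 of the 554 members, 88 in the stretch (55.3%) and 145 elsewhere (36.7%). With the background at 1 value, the fold enrichment follows from the pileup, and 34 members had exactly 4.18-fold enrichment at a pileup of 12.3. Replicate 2 showed no such difference in its medians, with a pileup of 31 inside (quartiles 20 and 56.5) and 30 elsewhere (21 and 60). Its lowest background, 1.35, was shared by 46 members, or 8.81% inside and 8.10% elsewhere.

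Longer peaks had higher fold enrichment in replicate 2, and much less so in replicate 1. The median length was 320 bp in replicate 1 (quartiles 274 and 390) and 376 bp in replicate 2 (313 and 452). In replicate 2, Spearman's rho of length with fold enrichment was 0.796 across the n = 554 members, and with the members cut into 3 equal parts by fold enrichment the median lengths were 306, 362.5 and 479 bp, from the lowest part to the highest. In replicate 1 rho was 0.170, and these medians were 318, 312 and 338 bp. These are descriptions across peaks of 1 library, which share its depth and fragment size. Fold enrichment and pileup were likewise closer in replicate 2 (rho 0.814) than in replicate 1 (0.351). The pileup also rose with the implied background (rho 0.732 in replicate 1, against 0.405 in replicate 2). That background is computed from the pileup, so part of this relation is built in, and it is no separate finding.

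**Figure D3:**
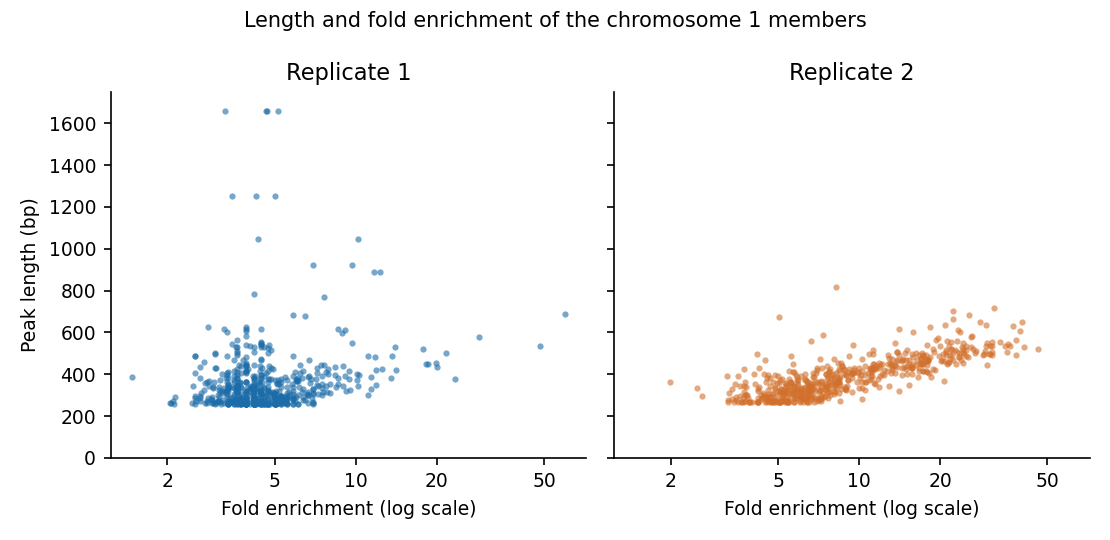
Peak length (bp) against fold enrichment (log scale) for the 554 members in each list, one point per peak. Replicate 2 lengths rise with fold enrichment (Spearman's rho 0.796), while those of replicate 1 are spread at each level (0.170), with summits of the same long interval in a row.

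The tallest replicate 1 member, at 240172877 to 240173137, had a pileup of 268 but 2.05-fold enrichment and a length of 261 bp, and its partner had a pileup of 63 and 14.6-fold enrichment. The tallest replicate 2 member, at 156332315 to 156332848, had a pileup of 209 and 30.6-fold enrichment, and its partner 49.9 and 12.5-fold. The longest replicate 2 member, 817 bp at 78389667 to 78390483, had 8.18-fold enrichment, and its partner 4.73-fold. Inside the stretch the median length was 340 bp in replicate 1 and 381 bp in replicate 2, against 316 and 373 bp elsewhere.

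How strong the partners of the strongest peaks were differed between the lists. The replicate 1 members with the highest fold enrichment were at 58256174 to 58256861 (59.6-fold, partner 30.7-fold), 90962998 to 90963532 (48.4-fold, partner 20.6-fold) and 80964982 to 80965558 (28.7-fold, partner 8.90-fold). Those of replicate 2 were at 28637768 to 28638290 (46.2-fold), 51945308 to 51945836 (40.9-fold) and 175516486 to 175517133 (40.3-fold), and their partners had 2.74-fold, 3.35-fold and 5.18-fold enrichment. The partners of the first 3 were all above the replicate 2 median. Of the partners of the last 3, only that of the peak at 175516486 was above the replicate 1 median. Of the 139 members in the upper 25% of replicate 1 by fold enrichment, 40 had a partner in the upper 25% of replicate 2. That is 28.8% of either set, near the 25% that unrelated rankings would give, so it is no finding of agreement.

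Across the 554 pairs, Spearman's rho of fold enrichment was 0.0432 and Pearson's r 0.103. Without the 2 pairs farthest from the replicate 1 median, r was 0.0270 and rho 0.0345, so r rested on the pairs at 58256174 and 90962998. The rank relation was as weak inside the stretch (rho 0.0453, n = 159) as elsewhere (0.0422, n = 395). It was also weak where partner summits lay within 50 bp (0.0677, n = 102), over 50 and up to 150 bp (0.0336, n = 183), or over 150 and up to 300 bp (0.0479, n = 253). In the 16 pairs with summits beyond 300 bp, rho was 0.215 for fold enrichment, 0.606 for −log10 q and −0.539 for length. These pairs are few, their bound lies at a break noticed in the data, and the values were not tested. In the nearer groups, rho lay between −0.0923 and 0.0929 for −log10 q and between −0.0297 and 0.0314 for length. Over all pairs, length gave a rho of −0.00978 and the implied background 0.00269. Values this near 0 in many pairs are no finding of a relation, and the points share 2 libraries.

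**Figure D4:**
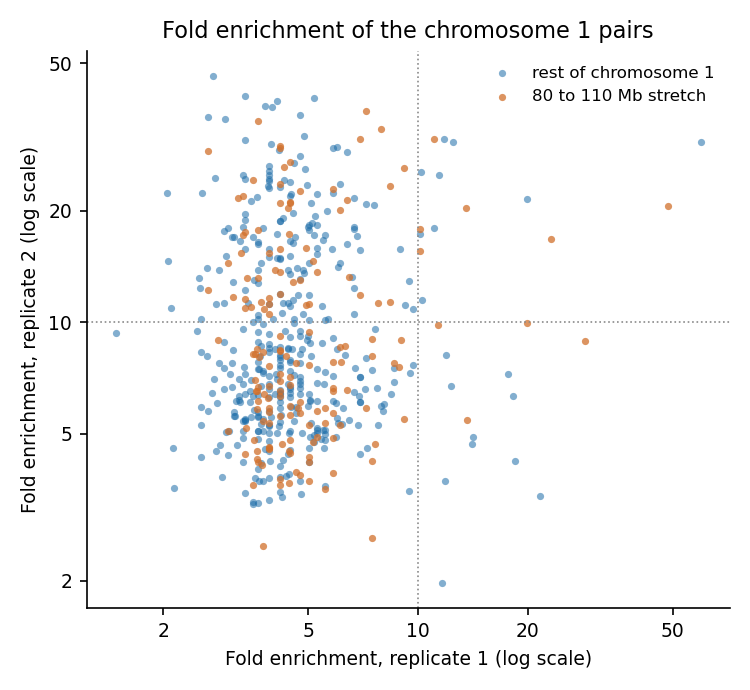
Fold enrichment of the 554 pairs in replicate 1 and replicate 2 (both on log scales), one point per pair, with the 159 pairs of the stretch in orange and dotted lines at 10. The points form an upright cloud with no visible slope (rho 0.0432), and 15 pairs lie beyond both lines.

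A fold enrichment of at least 10 in both lists was reached by 15 pairs, 2.71% (1.52% to 4.43%), against a background of 1.55% among all 1550 partnered pairs. Of these, 6 were in the stretch (3.77% of its pairs, 1.40% to 8.03%) and 9 elsewhere (2.28%, 1.05% to 4.28%). In replicate 1 alone, 29 members reached 10 (5.23%, 3.53% to 7.43%), against 3.42% of all partnered peaks. In replicate 2 alone, 214 did (38.6%, 34.6% to 42.8%), against 36.5%. The chromosome 1 pairs are part of each background, and supply 15 of its 24 pairs high in both lists. The intervals for replicate 2 and for both lists include the background, while that for replicate 1 begins just above it. On the other chromosomes, 9 of 996 pairs reached 10 in both lists (0.904%, 0.414% to 1.71%). In replicate 1 alone 2.41% did (1.55% to 3.56%), and in replicate 2 alone 35.2% (32.3% to 38.3%). The intervals of chromosome 1 and of the other chromosomes overlapped in each of these comparisons, for replicate 1 alone only between 3.53% and 3.56%. Overlap of intervals does not show that the shares are alike, and the differences were not tested.

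The 20 pairs with the highest smaller fold enrichment were spread over 3 parts of the chromosome. There were 9 below 80 Mb, 8 in the stretch, 3 above it and 0 beyond 200 Mb. Of all 554 pairs, 35.7% lay below 80 Mb, 28.7% in the stretch and 8.84% beyond 200 Mb. High values in both lists follow from this ranking. Replicate 2 was the higher list in 15 of the 20, and in 455 of all 554 pairs. Summits within 50 bp of each other were found in 2 of the 20, against 102 of all 554. The median summit distance was 91 bp, against 145 bp over all pairs. Counts from 20 pairs are too small to set these pairs apart from the rest.

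Below 80 Mb, the first pair was at 58256174 to 58256861, with a pileup of 188 in replicate 1 and 71 in replicate 2 and summits 93 bp apart. The pair at 57557753 to 57558188 was close in fold enrichment, at 19.96-fold and 21.5-fold, with summits 228 bp apart. Its pileups were 101 in replicate 1 and 65 in replicate 2. Replicate 2 was much the higher list at 51410542 to 51411024 (11.8-fold, partner 31.1-fold) and 19814772 to 19815157 (11.4-fold, partner 25.02-fold). It was the higher list by less at 48543577 to 48543877 (11.1-fold, partner 17.9-fold), 56970083 to 56970481 (10.1-fold, partner 17.3-fold) and 47779521 to 47779935 (9.42-fold, partner 12.9-fold). The pairs at 72777557 to 72777954 (10.2-fold, partner 11.5-fold) and at 77255336 to 77256257 (9.70-fold, partner 10.9-fold) were nearly even in fold enrichment. Their summits lay 280 and 147 bp apart. The intervals of the pair at 72777557 overlapped by 74 bp.

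In the stretch, the pair at 90962998 to 90963532 had pileups of 190.04 and 80 with summits 44 bp apart. The pair at 90334105 to 90334480 had 23.2-fold and 16.8-fold enrichment with summits 154 bp apart. The pairs at 84617401 to 84617852 (19.9-fold, partner 9.97-fold) and 81928241 to 81928568 (11.4-fold, partner 9.81-fold) were also higher in replicate 1, with summits 294 and 124 bp apart. Replicate 2 was the higher list at 107303766 (13.6-fold, partner 20.4-fold) and 107231017 (11.1-fold, partner 31.2-fold), both members of the run of 7 described above. It was also higher at 98101042 to 98102089 (10.1-fold, partner 17.9-fold) and 87164095 to 87164468 (10.1-fold, partner 15.6-fold). Above the stretch were the pairs at 156332344 to 156332766 (12.5-fold, partner 30.6-fold, summits 3 bp apart), 160726416 to 160726759 (10.2-fold, partner 25.4-fold) and 193504850 to 193505169. The last had 9.19-fold and 11.1-fold enrichment, with a pileup of 116 in replicate 1 and 36 in replicate 2.

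Partner intervals overlapped in 535 of the 554 pairs, by a median of 210 bp. Each summit lay inside the other interval in 276 pairs, 1 of the summits did so in 109, and neither did in 169. Partner summits lay a median of 145 bp apart (quartiles 71 and 228). The replicate 2 summit was at the higher position in 270 pairs and at the lower in 283. Summits within 50 bp were found in 102 pairs, 18.4% (15.3% to 21.9%). Partnered pairs of the other chromosomes had a share of 17.6% (15.3% to 20.1%) and a median distance of 151 bp. The bins of 50 bp within 300 bp to either side held between 36 and 57 pairs. The share within 50 bp is thus no finding of close summits.

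In the stretch the median distance was 124 bp (quartiles 68.5 and 207.5) and 33 of 159 pairs were within 50 bp, 20.8% (14.7% to 27.9%). Elsewhere the median was 159 bp and the share 17.5% (13.9% to 21.6%). The closest summits were at 19255158 to 19255503 (0 bp), 19052993 to 19053342 (1 bp) and 90714174 to 90714467 (1 bp). The first had 2.85-fold and 13.8-fold enrichment, the second 11.9-fold and 3.73-fold, and the third 5.28-fold and 5.74-fold. The fold enrichments of the lists were alike in the last of these pairs and unlike in the others.

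The largest summit distances were not found along the whole chromosome. The first 458 pairs by position had distances of at most 299 bp. From the pair at 175517012 to 175517271 on, with a distance of 331 bp, 16 of 96 pairs lay beyond 300 bp, or 16.7%. Of these 16, 7 were among the 49 pairs beyond 200 Mb, where the median distance was 182 bp. In 6 of the 16 the intervals did not overlap. On the other chromosomes, 39 of 996 pairs lay beyond 300 bp, the farthest at 394 bp, so such distances are not particular to chromosome 1. The break along chromosome 1 was noticed in the data and was not tested.

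**Figure D5:**
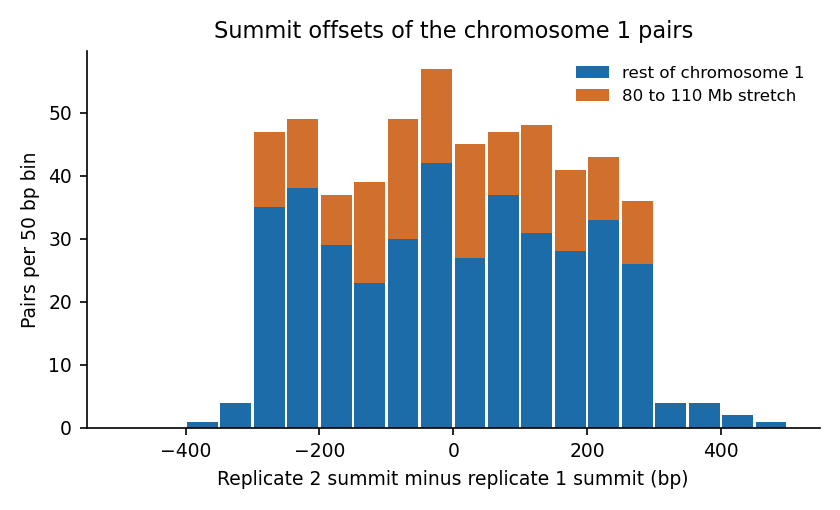
Number of pairs by summit offset, the replicate 2 summit minus the replicate 1 summit (bins of 50 bp), with the 159 pairs of the stretch stacked in orange on the 395 pairs of the rest. The bins within 300 bp hold between 36 and 57 pairs, and 16 pairs, all outside the stretch, lie beyond.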

How the data were processed

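The data were 2 peak lists, 1 per anti-ZmbZIP22 library. Bowtie2, with no version, and MACS2 2.0.10 are named in the submitters' processing notes. For the build, the call threshold and the control of each call, the sources used here give nothing. The authors deposited pileup as a signal value at each summit. The deposited fold enrichment is a ratio of that signal to a local background. Significance was deposited on a −log10 scale, both as p-values and as q-values. The headings of both significance columns were lost in the files, which were read in the usual MACS2 order. Length is the deposited length in bp.

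Partners were found by nearest summit (500 bp) and matched in order of position, and 2 pairs were not nearest neighbours. Background was (pileup + 1) / fold enrichment − 1. Python 3.11.15, pandas 2.3.3 and scipy 1.17.1 were used, and the matching and run finding were tested on simulated positions. The named pairs were the 20 with the highest smaller fold enrichment (each interval once), the extremes of each list, the closest and farthest summits, the longest runs and the shortest gaps. The members, the stretch and these lists were chosen with earlier results of these data known. Values with no test were compared with their alternatives by the interval of a share, 1 SD between the lists' medians, 1.5 times for a count, or 0.1 for a rho.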

Additional observations from a re-analysis of the deposited data

How the results depend on the processing

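Of 40 alternatives to 12 values, 29 stayed within the margins and 11 moved. For pileup and fold enrichment the margin came from the medians of lists with no known common scale, so staying within it says little. The replicate 1 median fold enrichment of 4.3 became 6.11 in the upper 50% by −log10 q, and still counts among the 29. Members numbered 728 with partners within 200 bp. The share of pairs in the stretch was 19.3% with each edge moved in by 5 Mb (6.64% of the span) and 33% with each moved out by 5 Mb (13.3%), since the bounds themselves set it. With partners within 200 bp it was 31.9%, and with members within 1 kb counted once (chosen after seeing the data) 27.2%. The share of members in runs was 35.3% over both lists, 20.3% with gaps of at most 50 kb and 57.8% with 200 kb. Among members in the upper 50% of their list by −log10 q, the median pileup was 44.2 in replicate 1 and 63 in replicate 2, and in replicate 2 the median length was 461 bp and the median fold enrichment 15.8, since this choice keeps the stronger peaks. Pairs past the same fold in both lists numbered 153 at 5-fold (27.6%, against 23.2% of all partnered pairs) and 4 at 15-fold (0.722%, against 0.387%). Each list alone gave 33.9% to 36.6% in runs, and counting every row gave 36.6%. The share of each list in the stretch, 28.7%, is the same by construction, since partners lie within 500 bp. The run shares of the lists are nearly fixed in the same way, since runs allow gaps of 100 kb. Matching by nearest summit changed only 2 pairs. These alternatives, all among the 29, thus say little or nothing of stability. Placement near genes and the sequences under the peaks were not analysed here, for want of a genome of the files' build. Pairs were described but no paired test was run, since no result here came from a test.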
